A study of Mus musculus with 20 samples.

Results

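Knock-in and wild-type mice were compared in forebrain at 4 weeks of age, with 3 arrays per genotype. These 6 arrays of the 20 in the series were chosen by the short code in the sample title, KCx4w for the knock-in and WCx4w for the wild-type group, and every probe set that is not an array control entered. Total RNA was hybridised to single-channel mouse oligonucleotide arrays of the Affymetrix type, in which a set of short probes reports on a transcript. The labels give the knock-in group as 4-week-old knock-in mice and the control group as wild-type mice of the same age, and name neither the knocked-in gene nor the strain. They do not say whether each array had its own mouse. If not, the p-values below cover technical spread alone. Forebrain at 11 weeks (2 arrays per genotype; 12 weeks in the titles) and cerebellum at 4 weeks (3 per genotype) are set beside them below; whether their animals are the same is not stated.

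The labels conflict on the region of the knock-in arrays: their source field names cerebellum, and so does the description of replicate 3, while the wild-type arrays are forebrain throughout. All 4 forebrain arrays at 11 weeks carry the same conflict between source field and description. The defining markers sided with the title code on all 6 arrays. Camk2a, a kinase of forebrain excitatory neurons, read 7384 to 8321 on the knock-in arrays and 9218 to 10239 on the wild-type arrays, against 13.8 to 385 on the 6 cerebellar arrays of the same age. Gabra6, the GABA-A subunit of cerebellar granule cells, read at most 438 on either of its probe sets in knock-in forebrain, and at least 25360 in cerebellum. Over the 9105 genes tested, log2 values correlated at 0.969 to 0.973 among the knock-in arrays, replicate 3 included, at 0.966 to 0.980 among the wild-type arrays, at 0.952 to 0.962 between the genotypes and at 0.826 to 0.855 between forebrain and cerebellum; the genes are shared and are not independent replicates.

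Forebrain tissue is made mostly of cerebral cortex, hippocampus and striatum, in which excitatory neurons, inhibitory neurons that use GABA, and glia are mixed. GABA acts through pentameric GABA-A receptors. Those with a delta subunit lie outside synapses and carry the steady, tonic part of inhibition, while excitatory input raises calcium and, through calmodulin-dependent kinases and the Ras pathway, switches on immediate early genes. In such bulk tissue fewer cells of a type and less RNA per cell cannot be told apart.

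At 4 weeks, 780 of 9105 genes (8.57%) differed between the genotypes at an adjusted p under 0.05 in limma's moderated test with Benjamini-Hochberg adjustment over all genes tested, two-sided. Of these, 554 were higher (6.08%) and 226 lower (2.48%) in knock-in forebrain, the shares against which the counts in gene lists below are to be read. That split rests on the scaling: 71.0% of the calls were rises with the deposited scaling, 59.3% (355 higher, 244 lower) after quantile normalization and 50.4% (280 higher, 276 lower) after cyclic loess. The excess of rises lay among dim genes. In the dimmest 20% of genes by mean intensity the median log2 difference was 0.28, with 189 rises and 26 falls, and in the brightest 20% it was -0.03, with 40 rises and 74 falls. After cyclic loess these dimmest and brightest genes held 55 rises and 69 falls, and 41 rises and 49 falls. The shares and medians of all genes set beside gene lists below are not matched for intensity. The 40th percentile of intensity, used below as the limit of a dim signal, was 728 to 758 on the knock-in and 606 to 659 on the wild-type arrays, and 128 rises but 27 falls had their dimmer genotype below that limit on every array.

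**Figure D1:**
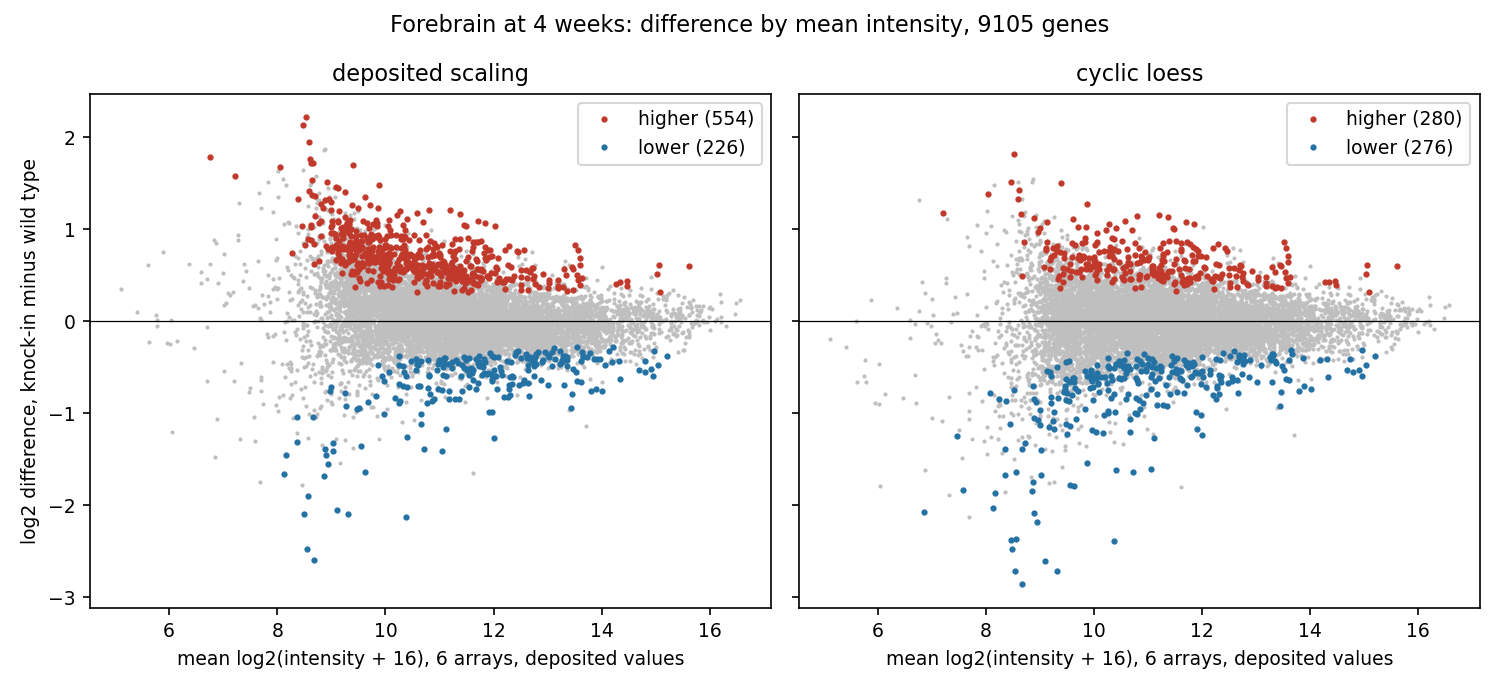
Log2 difference of knock-in minus wild-type forebrain at 4 weeks against the mean log2(intensity + 16) of the 6 arrays, 1 point per gene, with the deposited scaling on the left and after cyclic loess normalization on the right. Coloured genes have an adjusted p under 0.05; on the left 554 are higher, 189 of them in the dimmest 20% of genes, and 226 lower, and on the right 280 are higher and 276 lower.

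The count also moved with single arrays and with a measure of RNA quality. It was 318 without knock-in replicate 2, 345 without wild-type replicate 2, 359 without knock-in replicate 1, 516 without wild-type replicate 3 and 606 without knock-in replicate 3, the array described as cerebellum, while 146 rises and 64 falls kept their call whichever array was left out. The ratio of 3' to 5' GAPDH signal is a sign of RNA integrity. On the log2 scale it was 0.859 ± 0.032 on the knock-in and 0.793 ± 0.044 on the wild-type arrays (SD, n = 3). The log2 ranges of 0.827 to 0.890 and 0.744 to 0.828 overlapped. With that ratio as a covariate 113 genes were called, among them 68 of the rises and 34 of the falls. Below, a call is described as kept with the GAPDH term where it passed in that fit. A call without such a remark may have passed or failed there. The 6 arrays limit the precision: an exact permutation test of 3 against 3 cannot go below a p of 0.1, so the tests here borrow the spread of all 20 arrays and all genes.

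Among the 15 largest falls of genes whose brighter genotype was above the limit on all 3 arrays, 13 kept their call without any 1 array. Tnnc1, the calcium-binding troponin of slow muscle, read 747, 619.6 and 515 on the knock-in and 2966, 2519 and 2835 on the wild-type arrays. All 3 knock-in values lay under the limit and far below the wild-type values. It fell by 2.13 ± 0.17 on the log2 scale (SE; adjusted p = 2.06e-05, limma), at least 3.72-fold when the knock-in arrays are set at their limit; "at least" folds below are computed the same way. Rasgrf2, a calcium-dependent exchange factor that activates Ras and is used as a marker of upper cortical layers, read 274, 297 and 305 against 1378, 1179 and 1355. Again the knock-in arrays were close together and all below the limit, at least 1.75-fold lower (log2 difference -2.10 ± 0.32; adjusted p = 0.00249, limma). Scube1, a secreted and membrane-bound glycoprotein, read 213, 273 and 279 against 1275, 796 and 1297. Wild-type replicate 2 was the lowest of its group and still above every knock-in array (log2 difference -2.05 ± 0.21, at least 1.47-fold; adjusted p = 0.000102, limma). Ptpn4, a tyrosine phosphatase that binds glutamate receptors, read 114, 174 and 143 against 646, 955 and 1046 (log2 difference -2.48, at least 1.16-fold; adjusted p = 2.84e-05, limma); its wild-type replicate 1 was under the limit too.

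Falls that were measured above the limit in both genotypes do not depend on the floor. Ddit4l, an inhibitor of mTOR signalling, read 1188, 1363 and 1320.1 against 3701, 3626 and 3070.2, a 2.66-fold fall with no overlap (log2 difference -1.41 ± 0.17; adjusted p = 0.000421, limma). Its second probe set gave -0.81 (adjusted p = 0.319, limma). Myl4, an atrial and embryonic myosin light chain, read 811, 1076 and 1226 against 3306, 2475 and 2435, and Stard8, a START domain protein, 1497, 1537 and 1361 against 3057, 2869 and 4113. Both groups were apart by more than the spread within either, 2.62-fold for Myl4 (adjusted p = 0.00281, limma) and 2.25-fold for Stard8 (adjusted p = 0.000215, limma). A second Myl4 probe set, too dim to be kept, went the other way (546 to 765 in knock-in against 270 to 378 in wild-type forebrain). Nbl1, a secreted BMP antagonist, fell from between 1564 and 1739.9 to between 834 and 927 (1.84-fold). Sema4a, a semaphorin, fell from between 3171 and 3925 to between 1754 and 2038 (1.8-fold). Gdpd5, a glycerophosphodiester phosphodiesterase, fell from between 1985 and 2925 to between 1068 and 1208 (2.01-fold). The calls of Ddit4l, Myl4, Stard8, Sema4a and Gdpd5 were kept with the GAPDH term; Nbl1 had an adjusted p of 0.0715 there (limma). A second Sema4a probe set gave -0.35 (adjusted p = 0.314, limma).

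Among dimmer falls, Pacsin3, an endocytic adaptor, read 165 to 381 against 697 to 891, Ptpn23, a phosphatase of endosomal sorting, 403 to 475 against 950.3 to 1753, and Dkkl1, a Dickkopf-like secreted protein, 182 to 429 against 723 to 957. Their knock-in arrays were all below the limit, which puts the falls at 1.1-fold, 1.85-fold and 1.11-fold or more. Csmd1, a large membrane protein that curbs complement, read 514, 342 and 526 against 947, 1426 and 1238, at least 1.59-fold lower (adjusted p = 0.00412, limma; 0.0675 with the GAPDH term). The largest log2 difference among these falls, -2.60 ± 0.54 for the RNA exosome subunit Exosc1, came from 225, 125 and 120.4 against 778, 1211 and 1035 (at least 1.33-fold; adjusted p = 0.0105, limma). On the 11-week arrays Exosc1 read 1293 and 940.4 against 1186 and 867, with no fall. A second Exosc1 probe set, too dim to be kept, went the other way at 4 weeks (518 to 740 against 357 to 447). The Exosc1 call was lost with the GAPDH term (adjusted p = 0.0878, limma). Zc3h8, a zinc finger repressor, lost its call without any of knock-in replicates 1 and 3 and wild-type replicates 1 and 2 (adjusted p up to 0.0863, limma).

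**Figure D2:**
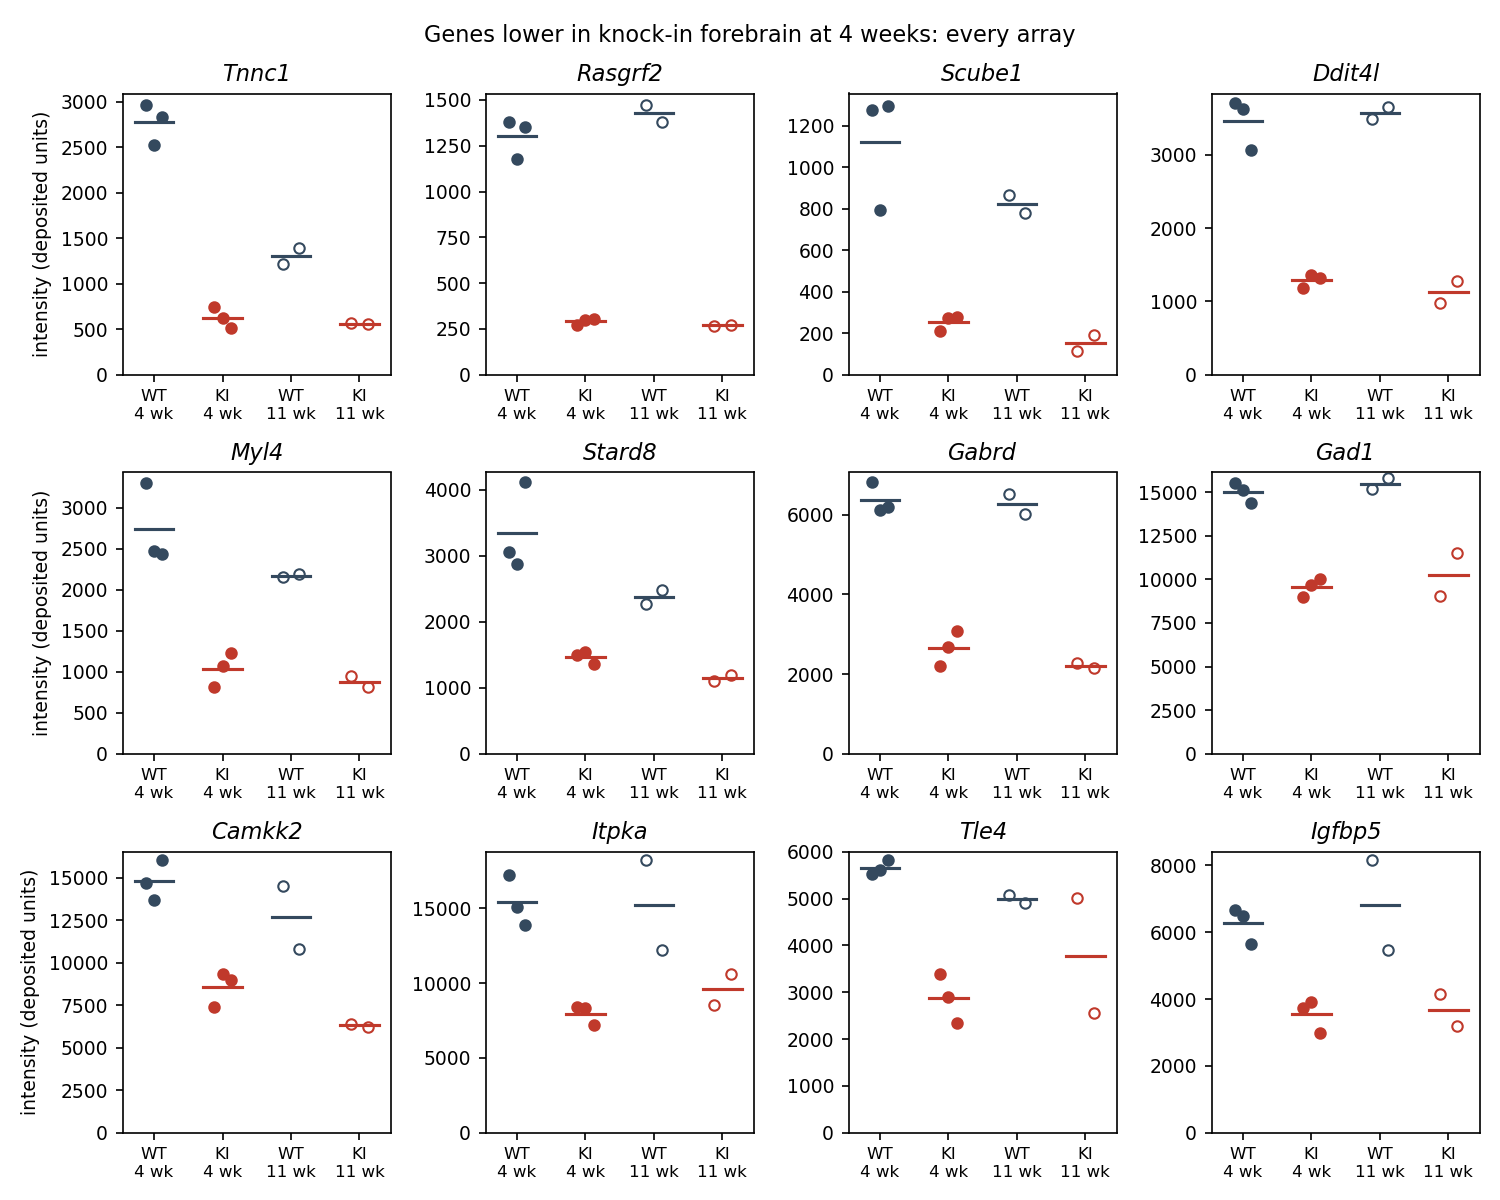
Deposited intensity of 12 genes on every forebrain array, with filled points at 4 weeks, open points at 11 weeks, wild type in dark blue, knock-in in red and bars at the group means. In all 12 panels the 3 knock-in arrays at 4 weeks lie below the 3 wild-type arrays; Gabrd reads 2198 to 3077 against 6108 to 6826.

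Among genes of inhibitory signalling, the largest fall was that of 1 receptor subunit. Gabrd, the delta subunit of extrasynaptic GABA-A receptors, read 2198, 2685 and 3077 on the knock-in and 6826, 6108 and 6187 on the wild-type arrays. The wild-type arrays were close together and far above the highest knock-in array. The fall was 2.41-fold (log2 difference -1.27 ± 0.11; adjusted p = 2.84e-05, limma) and was kept without any 1 array and with the GAPDH term. Gabrb2, a beta subunit found in most synaptic receptors, read 3128, 3277 and 3248 against 5100.1, 4449.7 and 4851 (1.49-fold lower; adjusted p = 0.0239, limma). That call ended without any of knock-in replicates 1 and 2 and wild-type replicates 1 and 3 (adjusted p up to 0.0698, limma). Gabrp, a subunit known mainly outside the brain, was higher (822 to 1181 against 673 to 727) and had an adjusted p of 0.213 after cyclic loess (limma); its call ended when any 1 array other than knock-in replicate 2 was left out (up to 0.141). Of 8 measured GABA-A subunits, 2 fell, 1 rose and 5 did not pass, with a median log2 difference of -0.14 against 0.05 over all genes. The subunits Gabra2 (-0.20), Gabrb1 (-0.18), Gabrg1 (-0.10), Gabra3 (0.03) and Gabre (0.84) did not pass.

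Of 6 genes for making, moving or sensing GABA, Gad1 and Abat fell and 4 did not pass. Gad1, the main enzyme that makes GABA, read 9015, 9695 and 10041 against 15505, 15145 and 14392, with no overlap and a 1.57-fold fall (adjusted p = 0.00473, limma; 0.0779 with the GAPDH term). A second Gad1 probe set gave -0.27 (adjusted p = 0.188, limma). Abat, the transaminase that breaks GABA down, read 5563, 5322 and 5363 against 7954, 6659 and 8034 (1.39-fold lower; adjusted p = 0.00605, limma; 0.0952 with the GAPDH term). At 11 weeks Abat read 5989.8 and 6048 against 5655 and 5649. At 4 weeks a second Abat probe set, too dim to be kept, went the other way (446 to 581 against 114 to 381). Gad2, the second GABA-making enzyme, had a log2 difference of -0.01 ± 0.15, and the vesicular transporter Slc32a1 -0.28 ± 0.15; neither passed.

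Calcium-handling genes leaned lower while few passed, as over all genes (8.57%). Of 24 calmodulin-dependent kinases and calcium sensors, 20 were below 0, with Tnnc1 and Camkk2 called lower and Hpcal1 higher, and the median was -0.16. Of all genes 43.7% were below 0, a share not matched for intensity. After cyclic loess the median was -0.16 for this list and -0.005 over all genes. Camkk2, the kinase that activates the other calmodulin kinases and AMPK, read 7398, 9314 and 9007 against 14692, 13679 and 16049 (1.73-fold lower; adjusted p = 0.00331, limma; kept without any 1 array and with the GAPDH term). Its other probe sets gave 0.13 (adjusted p = 0.727) and -0.37 (adjusted p = 0.412, limma), so the fall holds for 1 of 3. Camk2a did not overlap between the groups and still had an adjusted p of 0.853 (-0.35 ± 0.98, limma), an error that pools cerebellar arrays on which it is close to background. The 23 calcium channels and pumps had a median of -0.27. Cacna1g, the T-type channel of burst firing, read 2536, 2407 and 2297 against 3877, 3047 and 3606 (1.45-fold lower; adjusted p = 0.0139, limma; 0.143 with the GAPDH term). The auxiliary subunit Cacna2d1 read 3336, 3500.2 and 4282 against 6209, 5891 and 7676 (1.77-fold lower; adjusted p = 0.0248, limma). The Cacna2d1 call ended without knock-in replicate 1 or 2 or wild-type replicate 3 (adjusted p up to 0.0802, limma). The L-type channel Cacna1c rose by 0.43 and had an adjusted p of 0.156 after cyclic loess (limma); its call ended without each of the 6 arrays in turn (up to 0.161), and that of Hpcal1 when any 1 array other than knock-in replicate 2 was left out (up to 0.13).

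Potassium channels gave 5 falls and 1 rise among 33 measured genes (2.48% of all genes fell and 6.08% rose), with 27 not past the threshold and a median of -0.14. Kcnab3, a beta subunit of voltage-gated channels, read 1492, 1238 and 1018 against 1976, 1907 and 2164 (1.62-fold lower; adjusted p = 0.00532, limma), a call kept without any 1 array. Kcnip3, a calcium-binding channel partner also known as the transcriptional repressor DREAM, read 3643, 3414 and 4531 against 5585, 6228 and 7553 (adjusted p = 0.0309, limma). Its call ended without knock-in replicate 1 or 2 or wild-type replicate 2 or 3 (up to 0.107), and at a second probe set the difference was -0.24 (adjusted p = 0.427, limma). Kcnk3, a leak channel, was at 236, 653 and 198 against 772, 816 and 849. Knock-in replicate 2 stood well above the other 2 knock-in arrays and below the wild-type arrays, at least 1.09-fold in all (adjusted p = 0.0104, limma). The leak channels Kcnk1 (-0.39) and Kcnk2 (-0.36) were called lower and the G protein-gated Kcnj6 higher (0.43), a rise with an adjusted p of 0.198 after cyclic loess (limma). Leaving out single arrays ended all 3 calls, with adjusted p-values of up to 0.129 for Kcnk1 and 0.0942 for Kcnj6; the Kcnk2 call ended without knock-in replicate 2 or 3 or wild-type replicate 2 or 3 (up to 0.118). None of 6 sodium and HCN channels passed in limma's test (0 at an unadjusted p under 0.05); their range of summed intensity was 45021 to 45926 in knock-in and 45979.8 to 50369 in wild-type forebrain.

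Few glutamate receptor genes passed, as was the case over all genes (8.57%). Of 10 ionotropic subunits, 9 were below 0 (43.7% of all genes were), with a median of -0.19, and Grin2a, the NMDA subunit that rises as cortex matures, was called lower (945 to 1139.5 against 1257 to 1733, 1.39-fold; adjusted p = 0.0492, limma), a call that ended without 5 of the 6 arrays, all but knock-in replicate 3 (up to 0.166). Gria2, which makes AMPA receptors impermeable to calcium, was the member above 0 (0.36; adjusted p = 0.0505, limma). Of 15 genes of metabotropic receptors and phospholipase C, Dgkz, a diacylglycerol kinase that ends the signal, fell from between 31891 and 38024 to between 20384 and 25795 (adjusted p = 0.0158, limma; 0.0671 without knock-in replicate 1), and a second Dgkz probe set fell by 0.55 too (adjusted p = 0.0231, limma). The 15 summed to 78984 to 86676 in knock-in and 98272 to 103681 in wild-type forebrain, with no overlap, and a median of 0.02. Dgkz alone averaged 23689 against 34612, a large part of that gap, and 7 of the 15 were below 0. Itpka, which turns the second messenger inositol trisphosphate over, read 8379.7, 8308 and 7206 against 17235, 15096 and 13877 (1.93-fold lower; adjusted p = 0.00584, limma). Among 15 regulators of G protein signalling, with a median of -0.22, Rgs8 fell (2219.8 to 2659 against 3359.7 to 4018; adjusted p = 0.00346, limma; 0.0448 with the GAPDH term) and 14 did not pass. None of 22 genes of synaptic vesicle fusion passed in limma's test (6 at an unadjusted p under 0.05), and their median was 0.02. In the postsynaptic scaffold 2 of 13 fell, Lrrc4 (-0.56) and gephyrin, Gphn (-0.39). Gphn lost its call without each of the 6 arrays in turn (up to 0.123) and Lrrc4 without knock-in replicate 1 or 2 or wild-type replicate 1 or 3 (up to 0.0938). A second Gphn probe set gave -0.04 (adjusted p = 0.847, limma).

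**Figure D3:**
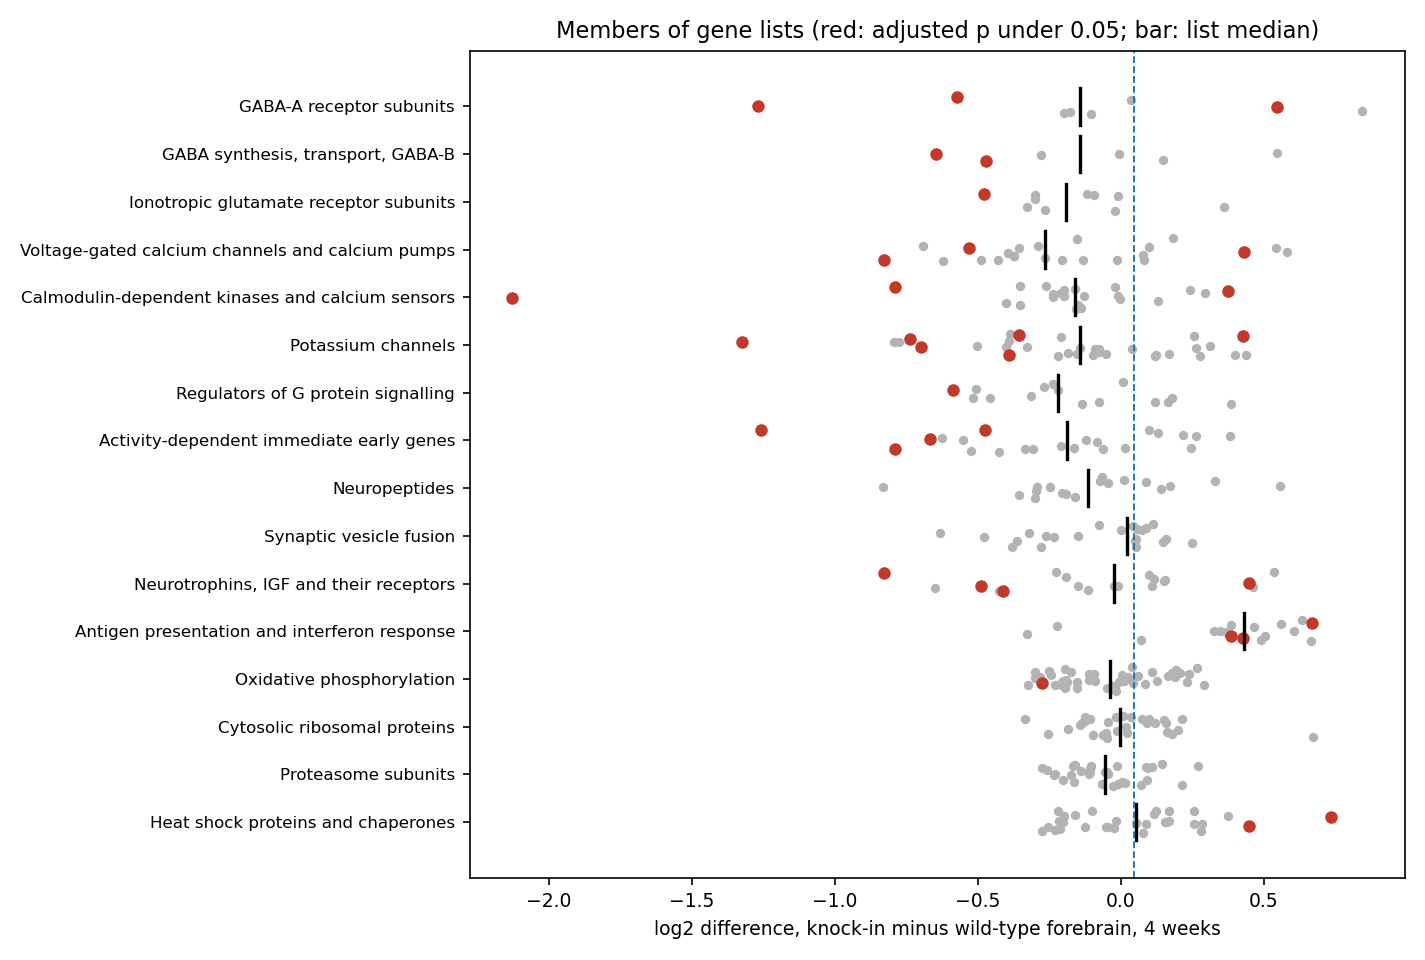
Log2 difference of knock-in minus wild-type forebrain at 4 weeks for the measured members of 16 gene lists, with genes of adjusted p under 0.05 in red, a black bar at the list median and a dashed line at the median of all genes (0.05). Members of the antigen presentation list sit mostly to the right, with a median of 0.43, and the Tnnc1 point of the calcium sensor list lies farthest left at -2.13.

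Immediate early genes, which neurons switch on within minutes of strong input, gave 4 falls and 0 rises among 22 measured (2.48% of all genes fell and 6.08% rose), with 18 not past the threshold and a median of -0.19 against 0.05 over all genes. Their summed intensity was 121807 to 137256 in knock-in and 142515 to 173171 in wild-type forebrain, with no overlap, as also in some lists without a called gene. The 4 were Egr2, a zinc finger transcription factor, Gadd45b, a stress-inducible regulator of DNA demethylation, Dusp1, a phosphatase that switches MAP kinases off, and Nr4a1, an orphan nuclear receptor. Calcium and cAMP act on many such genes through CREB bound to cAMP response elements, whose core letters are TGACG. The promoters of 3 of the 4 are printed, 250 bases before the start site from RefSeq (GRCm38.p6), 5′ to 3′ on the gene's strand, to show which of these genes carry that element; capitals mark TGACG or its reverse complement CGTCA. For Egr2 the table holds 5 promoters and none is printed.

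Dusp1, chr17:26508473-26508722, minus strand: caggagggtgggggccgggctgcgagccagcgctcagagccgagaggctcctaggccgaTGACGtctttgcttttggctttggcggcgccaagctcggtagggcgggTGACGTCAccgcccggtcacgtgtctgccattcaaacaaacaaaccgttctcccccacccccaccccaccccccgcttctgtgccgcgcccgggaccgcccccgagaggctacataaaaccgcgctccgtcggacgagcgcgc
Nr4a1, chr15:101266596-101266845, plus strand: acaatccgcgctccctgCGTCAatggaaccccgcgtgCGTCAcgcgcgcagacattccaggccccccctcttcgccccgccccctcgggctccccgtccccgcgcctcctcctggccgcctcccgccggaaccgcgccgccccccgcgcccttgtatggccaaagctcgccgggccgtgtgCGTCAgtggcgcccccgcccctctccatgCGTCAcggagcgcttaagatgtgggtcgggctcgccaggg
Gadd45b, chr10:80929841-80930090, plus strand: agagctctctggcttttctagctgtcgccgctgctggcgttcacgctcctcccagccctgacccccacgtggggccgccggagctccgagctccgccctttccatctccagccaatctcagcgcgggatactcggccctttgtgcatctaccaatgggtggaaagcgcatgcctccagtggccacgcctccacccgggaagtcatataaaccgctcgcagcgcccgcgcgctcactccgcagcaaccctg

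Dusp1 holds 3 matches, of which 2 overlap in the palindrome TGACGTCA, Nr4a1 holds 4 and Gadd45b 0. On both strands, TGACG was in 17.8% of all 32851 promoters of this length in the table, 25.8% of those of the genes tested, 29.2% of those of genes called lower, 18.3% of those of genes called higher, and 17 of 29 promoters (58.6%) of the immediate early genes tested. Each promoter was counted on its own, so these are not shares of genes, and the 29 promoters belong to 17 genes. A match describes the letters only.

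Dusp1 read 4530.0, 6179.6 and 4617 on the knock-in and 8872, 8101 and 7222 on the wild-type arrays. The groups did not overlap, and knock-in replicate 2 was the highest of its group (1.59-fold lower; adjusted p = 0.0227, limma). Nr4a1 read 14335, 15408 and 13613 against 24375, 19348 and 17123 (1.39-fold lower; adjusted p = 0.0389, limma; 0.0603 after cyclic loess). Gadd45b, with no match in its promoter, read 1699.7, 1086 and 1382 against 2814, 2391 and 1988 (1.73-fold lower; adjusted p = 0.0106, limma; 0.052 without knock-in replicate 2); its other probe sets gave 0.64 and -0.15 (adjusted p = 0.161 and 0.535, limma). Egr2 read 889.7, 654 and 1093 against 2663, 1774 and 1904 (2.39-fold lower; adjusted p = 0.0455, limma), and a second probe set gave -1.75 (adjusted p = 0.0766, limma). Leaving out 1 array ended the call of Egr2 for each of the 6 (adjusted p up to 0.147), of Nr4a1 for all but wild-type replicate 3 (adjusted p up to 0.112) and of Dusp1 for all but knock-in replicate 2 and wild-type replicate 3 (up to 0.0801, limma), and none of the 4 kept its call with the GAPDH term. Arc (-0.62), Junb (-0.55), Homer1 (-0.52), Bdnf (-0.43), Fos (-0.34) and Egr1 (-0.31) were below 0 without passing, and Per1 (0.38), Jun (0.25) and Fosb (0.22) above 0 without passing.

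Insulin-like growth factor binding proteins, which hold IGF in the extracellular space, gave 3 falls in a list of 19 growth factor genes with 3 falls, 1 rise and a median of -0.02. The binding proteins Igfbp2 and Igfbp3, also on that list, were not among the falls. Igfbp5 read 3736, 3911 and 2986 on the knock-in and 6671, 6501 and 5648 on the wild-type arrays, with no overlap (1.77-fold lower; adjusted p = 0.0122, limma), a call kept without any 1 array but not with the GAPDH term (0.102). A second Igfbp5 probe set gave -0.14 (adjusted p = 0.845, limma). The first probe set differed in cerebellum at 4 weeks by -0.87 (adjusted p = 0.0559, limma), and in forebrain at 11 weeks by -0.87 (adjusted p = 0.0724, limma). Igfbp4 fell from between 9788 and 10868 to between 7082 and 7557 (adjusted p = 0.0368, limma) and Igfbp6 from between 3726 and 4438 to between 3001 and 3335 (adjusted p = 0.0361, limma). Igfbp4 lost its call without each array in turn (up to 0.113; -0.25 to -0.97 at its other probe sets, none past). Igfbp6 lost its call without 4 of the 6, knock-in replicates 1 and 2 and wild-type replicates 1 and 2 (up to 0.112). The rise was Igf2r, the receptor that clears IGF2 (3409.5, 3062 and 3592 against 2410.2, 2483 and 2454; adjusted p = 0.0202, limma; up to 0.0615 without knock-in replicate 1 or 3 or wild-type replicate 2). The neurotrophin receptors Ntrk2 (0.11) and Ntrk3 (-0.15) did not pass.

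Marker lists of cortical neurons had lower summed intensity in all 3 knock-in arrays, at 73.0% to 80.8% of the wild-type mean for upper layers. Upper-layer excitatory markers summed to 52609 to 58222 in knock-in and 70828 to 73163 in wild-type forebrain, deep-layer markers to 67328 to 71308 against 81252 to 85611, general excitatory markers to 103746 to 104395 against 121020.0 to 127528 and interneuron markers to 103291 to 115258 against 125143 to 140524. In these 4 lists the groups did not overlap, which was not particular to cortical markers. Markers of cerebellar granule and Purkinje neurons, with 0 of 14 called, did not overlap either (34008 to 36174 against 36895 to 37732). Among the cortical markers, 2 of 15 upper-layer genes fell (Rasgrf2 and Nectin3) and 1 of 15 deep-layer genes (Tle4). So did 2 of 10 general excitatory genes (Itpka and Ngef, with Neurod2 higher) and 1 of 21 interneuron genes (Gad1). Over all genes 2.48% fell and 6.08% rose. The call of Ngef ended when any 1 array other than wild-type replicate 3 was left out (up to 0.0795). Medians were -0.20, -0.17, -0.12 and -0.07. Tle4, a corepressor of layer VI neurons, read 3380.4, 2894 and 2340.3 against 5526, 5604 and 5829.8 (1.98-fold lower; adjusted p = 0.014, limma), while a second Tle4 probe set stood at 0.02 (adjusted p = 0.959, limma). Nectin3, an adhesion molecule, read 1182, 1412 and 1488 against 2881, 2329.5 and 2276 (1.82-fold lower; adjusted p = 0.00845, limma), with 0.11, 0.31 and -0.69 at its other probe sets. Neurod2, a transcription factor of excitatory neurons, went the other way, 6557, 7764 and 7316 against 4146, 4541 and 4004 (1.7-fold higher; adjusted p = 0.0131, limma; 0.0547 without knock-in replicate 2). The defining upper-layer factor Cux2 (0.20) and the deep-layer factor Bcl11b (-0.35) did not pass. Neither did Sst (-0.06), Pvalb (-0.00), Npy (-0.04) and Vip (-0.83; adjusted p = 0.0518, limma), which mark classes of interneuron.

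Genes that also mark thalamus were among the falls, and their part in the falls was not tested. Of 16 measured thalamic markers, 5 fell (Gabrd, Ptpn4, Rgs8, Cacna1g and the RNA-editing enzyme Adarb1) and 0 rose (2.48% and 6.08% of all genes did), with a median of -0.41 against 0.05 over all genes, and the list summed to 31377 to 36224 against 43514 to 46554. The defining thalamic factor Tcf7l2 read 16.2 to 327 over its 4 probe sets and 6 arrays, below the limit on every one, and Lef1 was below it on every array too. Slc17a6, the glutamate transporter of thalamic relay cells, overlapped between the genotypes on both probe sets, and Prkcd read 1596 to 1682 in knock-in and 1243 to 1505 in wild-type forebrain. Choroid plexus genes overlapped between the genotypes, and their sum was 6992 to 14978 against 5271 to 31690.4. Astrocyte markers overlapped (269479 to 302163 against 282986 to 300973), with 2 of 22 lower, the membrane protein Mlc1 (4292 to 5703 against 7420.3 to 10957; adjusted p = 0.00836, limma) and glutamine synthetase, Glul (-0.53), which had -0.05 at a second probe set and lost its call without knock-in replicate 1 or 3 or wild-type replicate 1 (up to 0.105). Oligodendrocyte markers summed to 195208 to 243996 against 189278 to 200120.0. In that list Sox10, the transcription factor of the lineage, was the gene that passed (3599, 3379 and 3935 against 1947, 2043 and 1842, 1.86-fold higher; adjusted p = 0.00145, limma; kept without any 1 array and with the GAPDH term), with values of 0.55 (adjusted p = 0.0197) and 0.32 (adjusted p = 0.126, limma) at its other probe sets, and 18 of 19 did not pass.

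**Figure D4:**
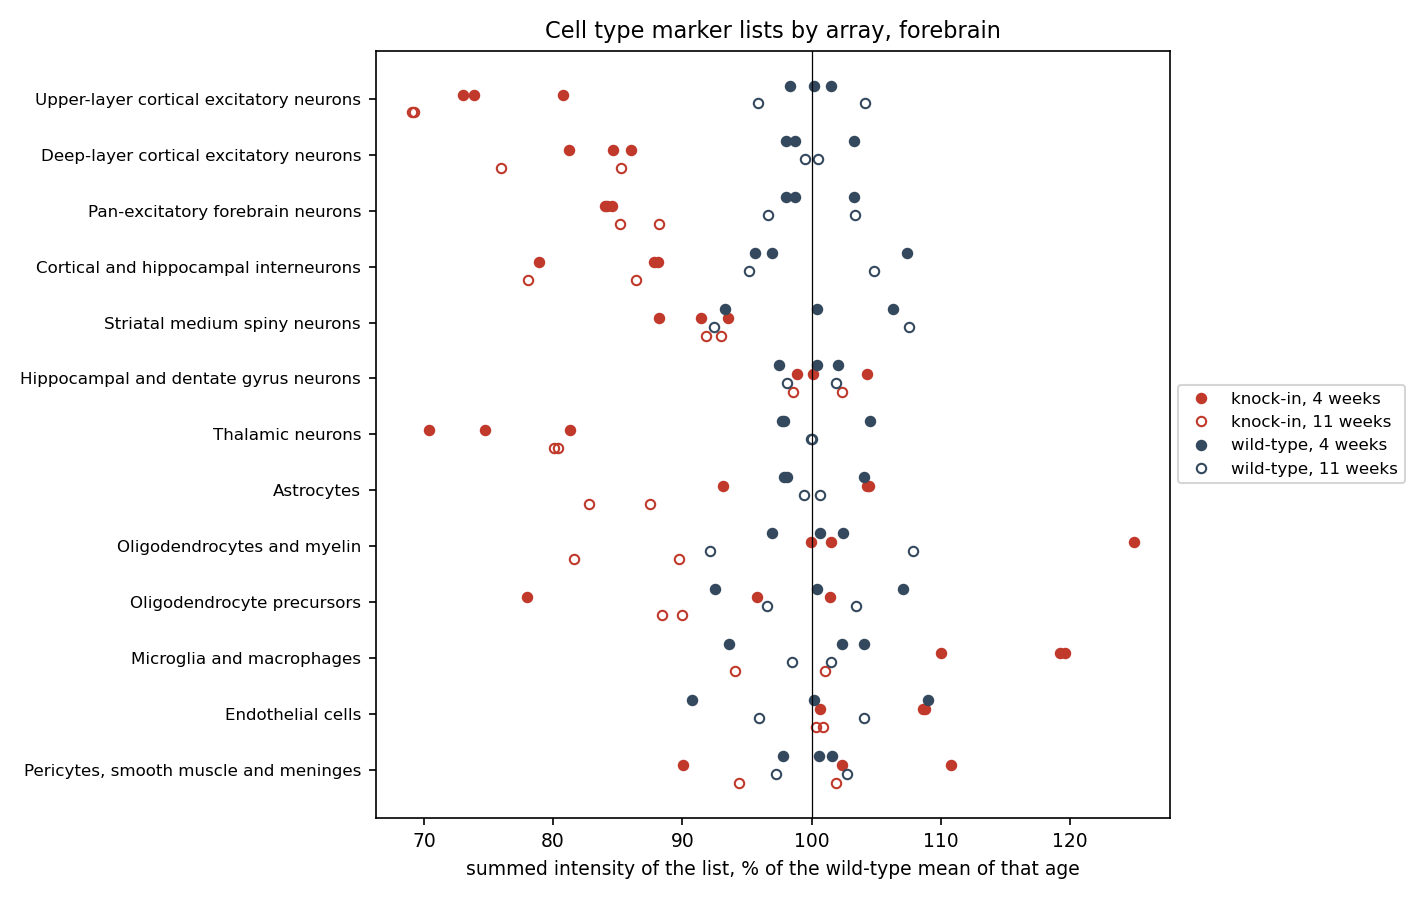
Summed intensity of 13 cell type marker lists on each forebrain array, as a percentage of the wild-type mean of the same age, with filled points at 4 weeks, open points at 11 weeks, knock-in in red and wild type in dark blue. Upper-layer markers at 4 weeks lie at 73.0% to 80.8% in knock-in arrays, and hippocampal, endothelial and astrocyte markers overlap between the genotypes at that age.

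Genes of antigen presentation and the interferon response gave 3 rises and 0 falls among 18 measured (6.08% of all genes rose), and none of the 3 kept its call without any 1 array or with the GAPDH term. Of the 18, 2 lay below 0, as did 43.7% of all genes, and the median was 0.43 against 0.05 over all genes. The median was 0.29 and 1 gene passed after cyclic loess. Their summed intensity was 43028 to 45412 against 31517 to 37588, with no overlap, and 42054 to 45343 against 37714 to 38756 on the 2 arrays per genotype at 11 weeks. Stat2, which carries the interferon signal to the nucleus, read 1110.0, 1126 and 998 against 804, 781 and 880.0 (1.31-fold higher; adjusted p = 0.0254, limma; up to 0.0891 without knock-in replicate 1 or 2 or wild-type replicate 2), with -0.16 at a second probe set. Tap1, the peptide transporter of class I antigen loading, read 779, 889 and 769 against 566, 482 and 468. Every wild-type array was below the limit, so the rise was at least 1.27-fold (adjusted p = 0.0284, limma; up to 0.0983 without knock-in replicate 1 or 2 or wild-type replicate 2 or 3). H2-D1, a class I heavy chain, read 5339, 4880.3 and 5656 against 4207, 3749.9 and 3816 (adjusted p = 0.0346, limma); its call ended when any 1 array other than wild-type replicate 1 was left out (up to 0.107). Its other kept probe sets stood at 0.63 (adjusted p = 0.0275, limma), at 0.68 without passing and, under the limit, at -1.50 (adjusted p = 0.0401, limma). Class I genes are near-identical copies, so these probe sets may share signal. The values of H2-K1 (0.61), B2m (0.47), Ifit1 (0.56), Ifit3 (0.50) and Cd74 (0.35) were above 0 without passing.

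Microglial markers were higher on the same arrays. They summed to 68405 to 74350.0 in knock-in and 58193 to 64702 in wild-type forebrain at 4 weeks, and to 58142 to 62478 against 60895 to 62757 at 11 weeks; their part in the immune rises was not tested. Of 20 measured, 3 rose and 0 fell, with a median of 0.22. They were Laptm5, a lysosomal protein of blood-derived cells (3256, 3739 and 2895 against 2416, 1948 and 2123; adjusted p = 0.00891, limma), the endotoxin co-receptor Cd14 (1334, 1238 and 1081 against 783, 727 and 829.8; adjusted p = 0.0276, limma) and Tmem119 (3779.5, 3648 and 3299.8 against 2539, 2581 and 2668; adjusted p = 0.0284, limma). Laptm5 kept its call without any 1 array. Cd14 lost it without knock-in replicate 1 or 2 or wild-type replicate 2 (up to 0.0934) and Tmem119 when any 1 array other than knock-in replicate 3 was left out (up to 0.0901). Other Laptm5 probe sets gave 0.72 and -0.77 without passing. After cyclic loess 1 of the 20 passed. The defining genes C1qa (0.12), Csf1r (0.14), P2ry12 (0.23), Tyrobp (-0.02) and Cx3cr1 (0.52) did not pass. Fcgr4, an activating antibody receptor of myeloid cells, was among the largest rises (1369, 1147 and 1218 against 364, 584 and 504, at least 1.95-fold; adjusted p = 0.00288, limma). Cxcl13, a chemokine that draws B cells, read 2735, 1948 and 2234 against 1162, 855 and 1007 (2.26-fold higher; adjusted p = 0.00135, limma). Both were kept without any 1 array and with the GAPDH term.

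The other large rises were mostly those of dim genes. Foxh1, a partner of Smad proteins, read 1354, 895 and 1431 against 544, 267 and 314 (at least 1.89-fold; adjusted p = 0.0227, limma; up to 0.0863 without knock-in replicate 1 or 3 or wild-type replicate 2 or 3). Serpinb9b, a serine protease inhibitor, read 1362, 1466 and 1885 against 516, 481 and 655 (2.8-fold; adjusted p = 0.000314, limma). Papolb, a testis poly(A) polymerase, was at least 1.43-fold higher (817 to 1055 against 237 to 379). None of its 3 wild-type arrays reached the limit. Rises above the limit in both genotypes included Cnpy3, a chaperone of Toll-like receptors (3588, 3554 and 3528 against 1366, 1303 and 1991, 2.32-fold; adjusted p = 0.00276, limma), the homeobox gene Tlx2 (1796, 1842 and 1955 against 719, 795 and 909, 2.29-fold; adjusted p = 0.00161, limma) and Tnfrsf4, a costimulatory receptor of T cells (3242, 2860.4 and 2116 against 1485, 926 and 1115, 2.32-fold; adjusted p = 0.00891, limma). In each the lowest knock-in array was well above the highest wild-type array, and the call was kept without any 1 array and with the GAPDH term. St3gal3, a sialyltransferase, rose 2.24-fold (3068 to 5010.1 against 1537 to 1894), but its second probe set gave 0.06 (adjusted p = 0.855, limma) and the call ended without knock-in replicate 2 (adjusted p = 0.0606, limma). The epithelial factor Elf3 (1332 to 1487 against 429.6 to 737) and the interleukin Il1f10 (1567 to 2021 against 517 to 1007) kept their rises without any 1 array. With the GAPDH term neither passed (adjusted p = 0.0626 and 0.0957, limma). Cyp3a11, a drug-metabolizing enzyme of liver (768 to 973 against 249.9 to 534), lost its call without knock-in replicate 1 or wild-type replicate 2 (up to 0.0565). Retn, among the 15 largest rises, lost its call without knock-in replicate 1 (up to 0.0594). Nmur2 lost it without knock-in replicate 1 or 2 or wild-type replicate 2 (up to 0.118) and Cldn1 without knock-in replicate 1 or 2 or wild-type replicate 2 (up to 0.0775). Nmur2 and Cldn1 also lost it after cyclic loess (0.0845 and 0.0563). Chrm4, the muscarinic receptor of striatal neurons, read 647, 855 and 694 against 97.7, 113 and 312, with 1 knock-in and 0 wild-type arrays above the limit (at least 1.14-fold; adjusted p = 0.00129, limma).

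Rises were also seen in bright genes. Spock1, a secreted proteoglycan, read 16278, 17272 and 13306 against 7402, 10062 and 8852 (1.78-fold; adjusted p = 0.00331, limma), and a second probe set rose by 0.43 (adjusted p = 0.0303, limma). Slc30a3, the transporter that loads zinc into glutamate vesicles, read 14449.5, 14628 and 18695 against 9727, 8404 and 9587 (1.71-fold; adjusted p = 0.00917, limma). Dpf2, a BAF chromatin subunit, read 7398, 6573 and 5959 against 3887, 3699 and 3674 (1.76-fold; adjusted p = 0.000579, limma). Ppp4c, a phosphatase catalytic subunit, read 4086, 3997 and 4604 against 2692, 2135 and 2165 (1.82-fold; adjusted p = 0.00179, limma). Groups did not overlap in any of these 4, nor in 540 of the 554 rises and 222 of the 226 falls; over all genes tested, 18.6% had every knock-in array above and 11.1% every knock-in array below the wild-type arrays.

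Few genes of basic cell machinery passed, beside 8.57% of all genes. None of 30 cytosolic ribosomal proteins and none of 31 proteasome subunits passed in limma's test (2 and 3 at an unadjusted p under 0.05), with medians of -0.00 and -0.05. Of 46 genes of oxidative phosphorylation 1 passed (Ndufv2, -0.28), a call that ended without each of the 6 arrays in turn (up to 0.118). Of 31 heat shock proteins and chaperones, Dnajb2, a neuronal J-domain protein that sorts ubiquitinated clients, rose (6188, 5991 and 5855 against 4170.1, 4462 and 4565, 1.37-fold; adjusted p = 0.00584, limma; kept without any 1 array). So did Hspb8, a small heat shock protein (1293 to 1578 against 702 to 1179; adjusted p = 0.0333, limma; 0.0777 after cyclic loess; lost when any 1 array other than wild-type replicate 2 was left out, up to 0.0943), whose other probe sets gave 0.13 and -0.20. The other 29 did not pass. Of 15 measured genes mutated in polyglutamine diseases or binding ataxins, Atn1, the gene of dentatorubral-pallidoluysian atrophy, rose (3336, 2871 and 3285 against 1676, 2438 and 1847, 1.6-fold; adjusted p = 0.027, limma; up to 0.0801 when any 1 array other than wild-type replicate 2 was left out). The other 14 did not pass. Atxn7 read 699, 855 and 459.8 against 814, 733 and 540.5 (-0.07 ± 0.62; adjusted p = 0.955, limma). Atxn1 lay at 35.9 to 110 on 1 probe set, under the limit on all 6 arrays, and was not tested. None of 16 genes of the SAGA coactivator passed in limma's test (3 at an unadjusted p under 0.05). Of 23 genes reported lower in striatum or cortex of polyglutamine mice, 3 fell (Camkk2, Arpp19 and Arpp21) and 20 did not pass, with a median of -0.06. Arpp19, a phosphatase inhibitor, fell at all 3 of its probe sets, by 0.44 (adjusted p = 0.0124), 0.69 (adjusted p = 0.0419) and 0.51 (adjusted p = 0.0273, limma), and read 16544, 17848 and 17989.9 against 23973, 23664 and 23217. The call of Arpp21 ended when any 1 array other than wild-type replicate 2 was left out (up to 0.112). The call of the first Arpp19 probe set was at 0.0506 without knock-in replicate 1. The striatal genes Pde10a (-0.76), Penk (-0.20) and Ppp1r1b (0.56) did not pass.

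Forebrain at 11 weeks, on 4 arrays that share no sample with the 6, gave the same sign for most of these genes. Of the 554 rises 512 (92.4%) were above 0 at 11 weeks, as were 57.7% of all genes. Of the 226 falls 201 (88.9%) were below 0, as were 42.3% of all genes. These shares of all genes are not matched for intensity. At 11 weeks the limits were 697 and 706 on the knock-in and 612 and 680 on the wild-type arrays. The differences were smaller, with a median of 0.34 for the rises (0.69 at 4 weeks) and -0.36 for the falls (-0.55 at 4 weeks), beside 0.05 for all genes at either age; the 4-week values chose these genes. With 2 arrays per genotype 50 genes were called higher (0.549%) and 51 lower (0.56%) at 11 weeks. Of these, 23 rises (46.0% of the 50, 4.15% of the 554) and 35 falls (68.6% of the 51, 15.5% of the 226) were called in the same direction at 4 weeks, and 0 in the opposite one. Both ages were tested in 1 fit with a shared error variance for each gene, so the calls at both ages are not independent. No gene had a difference between the ages that passed in limma's test (586 at an unadjusted p under 0.05), so a gene called at 1 age is not shown to differ between them.

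The 35 falls at both ages, a set chosen after the values were seen, include several receptors and signalling proteins. Gabrd read 2283 and 2145 against 6514 and 6017 at 11 weeks, Rasgrf2 268 and 271 against 1475 and 1381, Scube1 114 and 193 against 869 and 780.0 and Ddit4l 978 and 1279 against 3485 and 3648. In all 4 the groups did not overlap at either age. Tnnc1 read 567 and 559 against 1214 and 1387 at 11 weeks; its wild-type values there were below those at 4 weeks, a difference that was not tested. Gpr83, an orphan receptor, read 137, 343 and 415 against 540.0, 838 and 1019.7 at 4 weeks (at least 1.04-fold; adjusted p = 0.0273, limma; up to 0.102 without knock-in replicate 1 or wild-type replicate 2 or 3) and 87.3 and 46.5 against 982 and 1169.6 at 11 weeks (-3.76; adjusted p = 0.000743, limma). Lingo1, a Nogo receptor partner that restrains myelination, read 11823, 12051 and 11297 against 20069, 19736 and 18769 at 4 weeks (1.66-fold lower; adjusted p = 0.00339, limma), and 11116 and 8526 against 19452 and 18157 at 11 weeks. Jdp2, an AP-1 repressor, read 2337, 2682 and 2545 against 3956, 4729.9 and 3977 (1.67-fold lower; adjusted p = 0.000649, limma). A second Jdp2 probe set, too dim to be kept, went the other way at 4 weeks (355 to 566 against 135 to 350). Hrh3, the histamine autoreceptor, read 2174, 2260.4 and 2513 against 3712, 4296 and 3425 (1.64-fold lower; adjusted p = 0.0155, limma; up to 0.0652 without knock-in replicate 1 or 2 or wild-type replicate 2). Fbxw7, a ubiquitin ligase subunit, fell from between 20567 and 23209 to between 11046 and 13744 and at a second probe set by 0.42 (adjusted p = 0.0355, limma). R3hdm1, an RNA-binding protein, fell from between 25315 and 26127 to between 15286 and 17376. Gabrd, Rasgrf2, Scube1, Ddit4l, Tnnc1, Gpr83, Lingo1, Jdp2, Hrh3, Fbxw7 and R3hdm1 all kept their call at 4 weeks with the GAPDH term. The 23 rises at both ages included Cxcl13 (1.12 at 11 weeks), the neural progenitor factor Sox3 (1661, 1122 and 1293 against 709.8, 717 and 824 at 4 weeks, 1.35 at 11 weeks), Dpf2, Slc30a3, Spock1, Atn1, the histone variant Macroh2a1 (7841 to 9031 against 5012 to 6003), the autophagy protein Map1lc3a (22136 to 23534 against 14982 to 20108) and the actin-binding profilin Pfn1 (7714 to 8031 against 5095 to 6031). The 4-week calls of Map1lc3a and Pfn1 ended when any 1 array other than wild-type replicate 1 was left out (up to 0.137) and without knock-in replicate 1 (up to 0.0516). The count of 58 at both ages was 34 without knock-in replicate 1 and 38 without wild-type replicate 2.

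**Figure D5:**
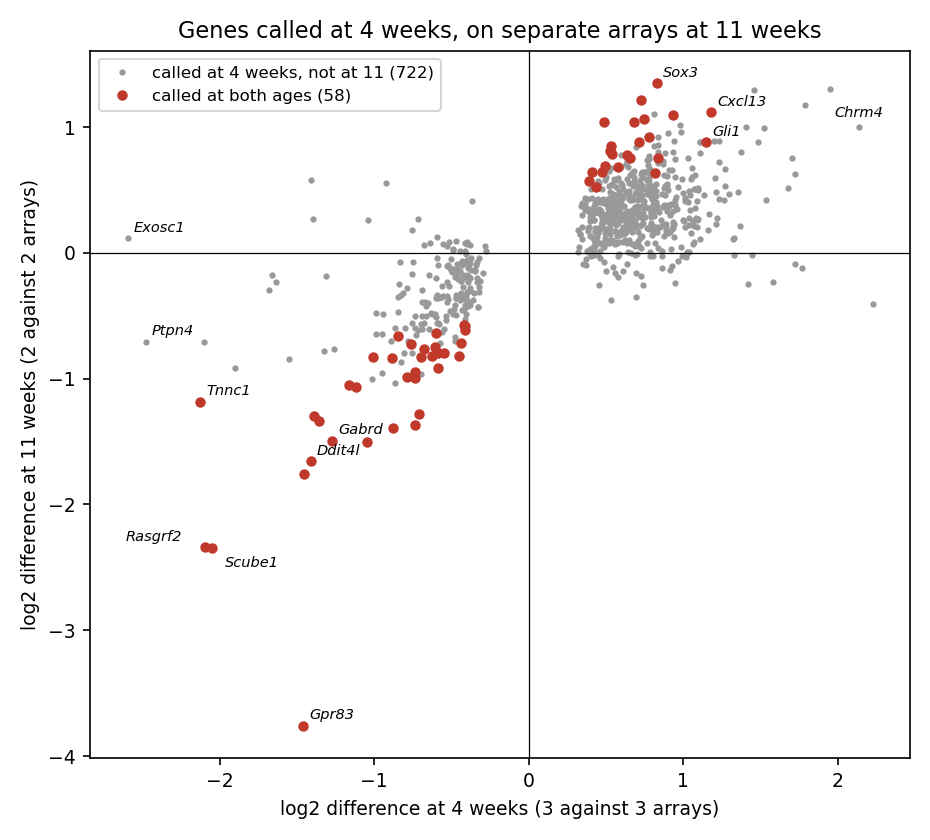
Log2 difference of knock-in minus wild-type forebrain at 11 weeks against that at 4 weeks for the 780 genes called at 4 weeks, with the 58 called the same way at both ages in red. Most points lie below 0 on both axes or above 0 on both; Exosc1, at -2.60 and 0.12, does not.

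In cerebellum at 4 weeks, 493 of the 554 forebrain rises (89.0%, against 56.2% of all genes) and 170 of the 226 falls (75.2%, against 43.8%) had the same sign, with medians of 0.27 and -0.13. Here too the shares of all genes are not matched for intensity, and the limits were 686 to 775 on the knock-in and 632 to 667 on the wild-type arrays. The difference between the regions itself passed in limma's test for 21 genes (0.231%), with 16 lower and 5 higher in forebrain relative to cerebellum. For 7 of the 21, Rasgrf2, Tnnc1, Scube1, Myl4, Csmd1, Ddit4l and Tpd52l1, all 6 cerebellar arrays were below their limits of 632 to 775, so a genotype difference in cerebellum was not measured and their difference between regions compares forebrain with dim signal. Tnnc1, for example, averaged 449.6 ± 108 in knock-in and 418 ± 74.8 in wild-type cerebellum (SD, n = 3). Genes above the limit on all 6 cerebellar arrays included Ptpn4 (1364 ± 219 against 1538 ± 425; -0.15) and Gabrd (15495 ± 696 against 17914 ± 1849; -0.20), neither of which passed in cerebellum. Stard8, also measured there, was above 0 in cerebellum (0.44) without passing. The count of 21 was 12 without knock-in replicate 3, the array whose description names cerebellum.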

How the data were processed

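The deposited matrix holds the authors' array intensity values, on a linear scale, for each probe set. Every one of the 20 arrays had a trimmed mean between 2500.59 and 2500.75, as after scaling to a common mean. Software and build: not given in the sources used here. Of 22690 probe sets, 64 were controls; 20380 named a single gene, 691 several and 1555 none. A probe set was kept where it passed the 40th percentile of 2 or more arrays (15627; median limit 681), and the one with the highest mean stood for its gene (9105 genes). Folds and differences come from log2(intensity + 16), which shrinks those of dim genes. limma 3.58.1 (lmFit, eBayes; R 4.3.3) fitted 1 mean per group to all 20 arrays (12 residual and 3.41 prior degrees of freedom), was tested on simulated data, and gave two-sided p-values adjusted by the Benjamini-Hochberg method over the genes, or, for other probe sets, over all kept probe sets. Errors are SDs of arrays or SEs of the model. Summed intensities of lists follow their brightest members, and sums without overlap were also found in lists with no called gene. A call has an adjusted p under 0.05. Alternatives were 14 settings and each array left out. Named genes were the 15 largest rises and 15 largest falls among calls with the brighter genotype above the limit on all 3 arrays and no overlap, up to 4 called members of each of 48 lists, up to 6 each way in differences between regions or ages, Igfbp5, Atxn1 and Atxn7; members named for not passing were picked as known defining genes. Kcnk1, Kcnj6, Adarb1 and Ndufv2 and the genes called at both ages were named after their values were seen. The members and lists were chosen with earlier results of these data known. No 2 arrays held identical values. Promoter sequences are RefSeq's.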

Additional observations from a re-analysis of the deposited data

Results flagged for a closer look

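The genes given here were singled out because the knock-in difference in forebrain at 4 weeks differed from that in cerebellum at 4 weeks by limma's test of the difference itself, adjusted over all genes. Values are log2 differences, forebrain minus cerebellum, and the cause of none was tested. Lower in forebrain were Rasgrf2 (-2.48), Ptpn4 (-2.33), Tnnc1 (-2.22), Scube1 (-2.14), Myl4 (-2.11), Csmd1 (-1.81), Stard8 (-1.61), Ddit4l (-1.54), 0610040J01Rik (-1.47), Nbl1 (-1.08), Gabrd (-1.07), Siae (-1.03), Sema4a (-0.93), N4bp3 (-0.93), Dipk2a (-0.76) and Ttc19 (-1.57). Of these 16, 15 were called lower in forebrain at 4 weeks, all but Siae, and 11 at 11 weeks too, all but Ptpn4, Ttc19, Siae, N4bp3 and Dipk2a. All 6 cerebellar arrays were below the limit for Rasgrf2, Tnnc1, Scube1, Myl4, Csmd1 and Ddit4l, so the sizes given for these 6 set forebrain against signal too dim to measure. 0610040J01Rik, which carries a clone name, was below the limit on all arrays of both genotypes (134 to 182 against 418 to 482), so no fold is given. Higher in forebrain were the ubiquitin ligases Wwp1 (0.84) and Rnf19b (0.87), the chromatin subunit Dpf2 (0.88), the phosphatase subunit Ppp4c (1.10) and Tpd52l1 (1.54). Other probe sets of Wwp1 gave -0.45 and -0.08 in forebrain, and the other of Rnf19b gave -0.52 (adjusted p = 0.0621, limma). Tpd52l1 did not pass in forebrain (852 to 1029.8 against 850.4 to 982; 0.08) and was called lower in knock-in cerebellum (-1.46; adjusted p = 0.00299, limma), where all 6 arrays were below the limit. Ppp4c was higher in forebrain at 4 weeks (0.86) but not at 11 weeks (-0.03).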

How the results depend on the processing

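The count of 780 became 436 with forebrain arrays only, 288 with the 6 arrays only and 113 with the GAPDH ratio as a covariate; without 1 array it was 318 to 802. It stayed within 1.5 times with an offset of 1 (776) or 64 (833), quantile normalization (599), cyclic loess (556), no filter (664), a filter on the 6 arrays (747), every probe set (1151), their mean (793), an intensity trend (858) and same-numbered arrays of both regions as a random block (785). Between the genotypes, deviations of same-numbered knock-in and wild-type arrays correlated at -0.08, -0.05 and 0.03. With 3 arrays per group these values cannot show whether same-numbered arrays of the genotypes belong together. The replicate block joined same-numbered arrays of both genotypes within a region and age. With it 451 genes were called, and 8 for the difference between regions. That difference of 21 genes became 12 without the filter and 7 with the GAPDH covariate, and 12 to 21 without 1 of the 6 forebrain arrays. The difference between ages stayed at 0 in every setting run. The 58 genes at both ages, counted after the data were seen, became 29 without the filter, 23 with forebrain arrays only, 28 with the GAPDH covariate and 21 with the replicate block. Of 132 called genes that the rules name, 62 kept their call without any 1 array; 90 lost it with the GAPDH covariate, 68 with the 6 arrays only, 45 with the replicate block and 20 with cyclic loess, and none reversed. Atxn7, not called, turned to 0.15 with the GAPDH covariate, 0.17 without knock-in replicate 3 and 0.05 without wild-type replicate 1 (range -0.27 to 0.17 without 1 array). The cause of these shifts was not tested. Dim signal limits the falls and rises given as at least a fold.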

Other observations

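Other gene groups gave single values. The neuropeptide list had 0 of 18 genes past the threshold in limma's test (6 at an unadjusted p under 0.05; 1 called after cyclic loess), with Vip (-0.83) and Cck (-0.36) the lowest, and its summed intensity was 112125 to 123896 in knock-in against 128816 to 144174 in wild-type forebrain. A pair of hypothalamic peptides were higher, Hcrt, which makes orexin (1029, 902 and 921 against 569.6, 461 and 553; at least 1.49-fold; adjusted p = 0.00748, limma), and Oxt, which makes oxytocin (4741, 4063 and 3568 against 2814, 2104 and 2816; adjusted p = 0.0252, limma; up to 0.103 without knock-in replicate 1 or 2 or wild-type replicate 2), while hypothalamic markers as a list overlapped between the genotypes. The same probe sets read 496 to 1131 (Hcrt) and 2229 to 3783 (Oxt) on the cerebellar arrays at 4 weeks, ranges that overlap those in forebrain. Foxj1, the master factor of motile cilia, read 826, 1000.4 and 847 against 466, 316 and 493, at least 1.4-fold higher (adjusted p = 0.013, limma; up to 0.059 without knock-in replicate 2 or wild-type replicate 2). Genes called alone or nearly so in their list were Nova1 (0.42) among splicing factors, Nras (0.60) among Ras genes, Sirt2 (0.45) among deacetylases, Hsd17b7 (0.42) in cholesterol synthesis and Bok (-0.89) and Tdo2 among hippocampal genes, and none of the 6 kept the call whichever array was left out. Tdo2 was higher, but below the limit on all 6 arrays (550.4 to 682 against 263 to 397). A second Nova1 probe set, too dim to be kept, went the other way (37.6 to 82.8 against 224 to 264). By chromosome, the share of tested genes called ran from 5.15% on chromosome 19 to 13.3% on X, where 29 of 278 genes were higher and 8 lower; all genes stood at 8.57%.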
